A study of Mus musculus with 6 samples.

Results

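The genes described here are 31 genes of the mevalonate pathway, of cholesterol synthesis, of its control by the sterol regulatory element-binding proteins (SREBPs), of sterol transport and of fatty acid synthesis. They were selected by gene symbol from the 20654 genes of the count table, which held all 31. Of these, 26 passed the filter on low counts and were tested among 8551 genes. RNA-seq was performed on cultured mouse muscle satellite cells (MuSCs), the stem cells of skeletal muscle, in 3 wild type libraries and 3 libraries labelled *Piezo1* cKO. *Piezo1* encodes a mechanosensitive ion channel, and the question was which transcripts differ between MuSCs with and without it. All mice were on the C57BL/6 background, and the age of the animals is not given in the sources used here. As the study describes them, the cKO mice were *Piezo1* flox/flox; *Pax7*CreERT2/+, in which tamoxifen-activated Cre is made from the *Pax7* locus of satellite cells. For the RNA-seq the study's text names the controls *Pax7*CreERT2/+, whereas the labels call them wild type. Cells of both groups were sorted as VCAM1+, CD31-, CD45-, Sca1- and grown for 3 d on Matrigel in a medium with 30% foetal bovine serum. In culture both groups received 4-OH tamoxifen at 1 μM. The study's methods also describe daily tamoxifen injections of mice for ex vivo work, and do not state whether the RNA-seq controls received them.

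The mevalonate pathway builds isoprenoid units from acetyl-CoA. One branch yields the farnesyl and geranylgeranyl groups that anchor small GTPases to membranes, and the other yields squalene, lanosterol and cholesterol. When sterol in the endoplasmic reticulum is low, SCAP escorts SREBP to the Golgi, where it is cut, and the freed fragment enters the nucleus and raises the transcription of the synthesis genes together. When sterol is high, INSIG proteins hold SCAP back. Serum carries lipoprotein cholesterol that cultured cells take up, and dividing cells need sterol for new membrane. Tamoxifen and its metabolites are known to bind the sterol enzymes EBP and DHCR7.

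None of the 26 tested members was called at an adjusted p under 0.05 by edgeR's quasi-likelihood test, which called 0.784% of all genes tested (0.468% as higher and 0.316% as lower in cKO-labelled libraries). The log2 fold change (libraries labelled *Piezo1* cKO over wild type) was above 0 in 19 of the 26 members, against 50.2% of all genes, and its median was 0.24, against 0.0021 over all genes. The values ran from -0.25 for *Fasn* to 0.56 for *Fdft1*. The unadjusted p was under 0.05 for 5 members, which were *Fdft1*, *Cyp51*, *Hmgcs1*, *Insig1* and *Scd2*, all with positive values, whereas 6.14% of all genes had such a p with a positive value and 5.78% with a negative one. DESeq2 fitted all 31 members, gave an adjusted p for 14 and called 0. Of the 31, 2 had an unadjusted p under 0.05 in DESeq2. With limma-voom 0 of the 26 were called and 7 had such a p. DESeq2 called 0.14% of the 19247 genes it fitted, not all of which had an adjusted p, and limma-voom 0.842% of the 8551. An unadjusted p under 0.05 was held by 576 of the 19247 genes in DESeq2 and by 1011 of the 8551 in limma-voom. With the replicate number as a block edgeR called 0.538% of genes and 0 members. At the looser adjusted p of 0.1, which 1.45% of all genes passed, edgeR passed *Fdft1* alone. Most synthesis genes thus had a positive value, but no single member was called after adjustment over all genes.

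**Figure D1:**
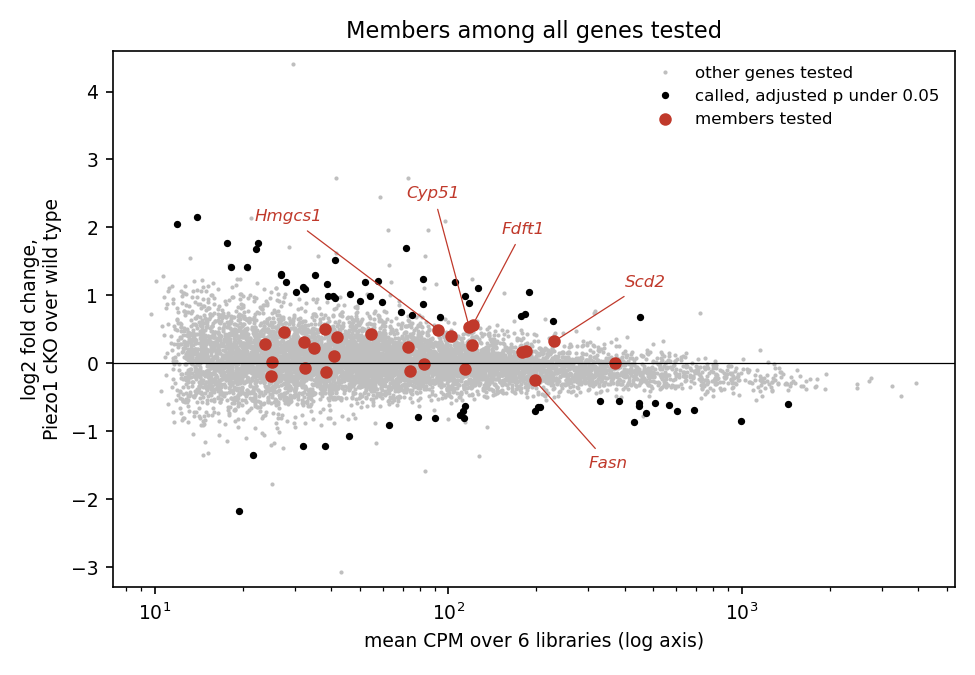
Each point is a gene tested, with its mean level over 6 libraries in CPM (counts scaled to a common total of 1e6, log axis) on the x axis and its log2 fold change on the y axis. The 26 tested members, in red, lie between -0.25 and 0.56, and none of them is among the 67 called genes, in black.

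The wild type libraries held 740936, 931168 and 891531 counts (replicates 1 to 3), and those labelled *Piezo1* cKO held 810096, 726378 and 769295. A count stands for 1 tagged cDNA molecule, and a level of 3 counts corresponded to 3.35 to 4.31 CPM after scaling by edgeR's TMM method, which is the scale of every level given below. The labels do not say whether libraries of a group came from separate mice, so the p-values measure the spread between these libraries, which may be in part technical. *Piezo1* itself (chr8:122481698-122551329, GRCm38, minus strand) gave 11, 5 and 6 counts in wild type against 7, 12 and 9 under the cKO label. Scaled, this was 9.49 ± 5.53 CPM (SD, n = 3) in wild type against 12.2 ± 3.50 CPM under the cKO label, with a two-sided exact permutation p of 0.5, where 3 libraries against 3 allow no p below 0.1. The groups overlapped, so the counts over the whole gene did not tell the genotypes apart, and counts over a whole gene do not show whether the floxed exons are missing from its transcripts. The *Piezo1* cKO group is therefore given by its label.

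Sequence near the start of the gene is shown for 5 members, because a sterol regulatory element (SRE) next to a CCAAT box, the site of the NF-Y cofactor, is the arrangement through which SREBP is known to act. The windows are 60 bases of the RefSeq promoters on GRCm38.p6, or 30 bases where GENCODE M21 annotates a 5′ UTR, 5′ to 3′ on the strand of the gene, with capitals for the SRE letters TCACNCCA and for the nearest CCAAT box, which reads ATTGG when it lies on the other strand. *Hmgcs1*, *Cyp51* and *Insig1* were among the members with the lowest unadjusted p, and *Msmo1* and *Srebf2* were the other members whose promoter held the SRE letters.
Hmgcs1, chr13:119690168-119690227, plus strand: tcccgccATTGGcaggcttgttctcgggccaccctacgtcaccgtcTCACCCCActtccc
Msmo1, chr8:64733730-64733759, minus strand: attcTCACTCCAtccgcgcagCCAATgact
Srebf2, chr15:82147093-82147152, plus strand: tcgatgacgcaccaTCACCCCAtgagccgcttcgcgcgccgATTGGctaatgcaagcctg
Cyp51, chr5:4104710-4104739, minus strand: ccgctgtccgccaCCAATctggtcctgaga
Insig1, chr5:28071168-28071227, plus strand: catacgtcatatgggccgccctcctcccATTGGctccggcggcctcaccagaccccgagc

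The SRE letters began 137 bases before the RefSeq start in *Hmgcs1*, 177 in *Msmo1* and 162 in *Srebf2*. The GENCODE gene begins 214 bases before the RefSeq start in *Msmo1* and 49 bases before it in *Cyp51*, so all 30 bases shown of each lie within an annotated 5′ UTR, whereas those of *Hmgcs1*, *Srebf2* and *Insig1* lie before both starts. The bases between the SRE letters and the CCAAT box numbered 34, 9 and 19. Over the 300 bases of each promoter (250 before to 50 after the RefSeq start, both strands searched), a gene was counted if any of its windows held the letters, and 5 of the 24 members with a RefSeq window had more than 1. TCACNCCA was present in 3 of the 24 members and in 4.41% of the 6706 tested genes with one. The longer form TCACNCCAC, which contains the shorter, was present in *Hmgcs1* and in 1.36% of those genes. CCAAT was present in 21 of 24 members, all but *Abca1*, *Acat2* and *Scap*, and in 43.1% of the tested genes. *Dhcr7* and *Insig2* held it in 1 of 3 windows, *Pmvk* in 1 of 2 and *Srebf1* in 2 of 3. The GC box GGGCGG, the letters bound by Sp1, was present in 21 of 24, all but *Fasn*, *Ggps1* and *Pmvk*, and in 73.3% of the tested genes. *Dhcr7*, *Insig2* and *Srebf1* held it in 2 of 3 windows. The 24 members include *Abca1*, *Idi1* and *Tm7sf2*, which were not tested. Over all 27025 genes with a window, tested or not, the shares were 4.97% for TCACNCCA and 1.44% for TCACNCCAC. They were 41.1% for CCAAT and 38.2% for GGGCGG. These letters were chosen with the windows in view, and a match is a description of the sequence only. *Msmo1* and *Srebf2* both held the SRE letters, and their log2 fold changes were 0.18 and 0.43.

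The first steps, from acetoacetyl-CoA to farnesyl and geranylgeranyl diphosphate, were represented by 8 members, of which 6 were tested and 5 had positive values, with a median log2 fold change of 0.29. *Hmgcs1* (chr13:119690379-119708260, plus strand), the synthase of HMG-CoA, had 97.8, 75.8 and 57.9 CPM in wild type libraries 1 to 3 and 117, 91.1 and 115 CPM in cKO-labelled libraries. The 2 highest values were both in cKO-labelled libraries, but cKO library 2 lay below wild type library 1, so the groups overlapped. Its level was 1.41-fold higher in cKO-labelled libraries, a log2 fold change of 0.50 (SE 0.18, edgeR adjusted p = 0.191). *Acat2* (chr17:12942890-12960747, minus strand), the cytosolic thiolase of the first step, had 112, 106 and 110 CPM in wild type and 143, 120 and 131 CPM in cKO-labelled libraries. All 3 cKO-labelled libraries lay above all 3 of wild type, with a log2 fold change of 0.27 (SE 0.16, edgeR adjusted p = 0.509).

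The kinases and the decarboxylase that follow were near the lower end of what was tested. *Mvd*, the mevalonate diphosphate decarboxylase, had 30.2, 15.6 and 24.8 CPM in wild type and 24.1, 31.7 and 39.8 CPM in cKO-labelled libraries, a log2 fold change of 0.46 (SE 0.30). It was 0.22 without wild type library 2, 0.26 without cKO library 3 and 0.66 without wild type library 1. *Pmvk*, the phosphomevalonate kinase, stood at 28.7 ± 4.55 CPM (SD, n = 3) in wild type and 35.7 ± 10.5 CPM in cKO-labelled libraries, and its log2 fold change of 0.31 (SE 0.27) was 0.051 without cKO library 2 and 0.18 without wild type library 3. *Mvk*, the mevalonate kinase, was the tested member of these steps with a negative value, -0.07 (SE 0.27), and its sign depended on the scaling, at 0.0095 with total counts alone. *Ggps1*, which makes the geranylgeranyl diphosphate used in protein prenylation, had 77.7, 51.3 and 72.0 CPM in wild type and 68.4, 97.7 and 70.2 CPM in cKO-labelled libraries. The difference rested on cKO library 2 and wild type library 2, and the log2 fold change of 0.25 (SE 0.20) was 0.061 without the former and 0.082 without the latter.

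*Idi1*, the isomerase of isopentenyl diphosphate, and *Fdps*, the farnesyl diphosphate synthase, did not pass the filter. *Idi1* had 6, 1 and 1 counts in wild type and 3, 2 and 1 in cKO-labelled libraries, and *Fdps* had 3, 2 and 2 against 6, 1 and 1. The last 500 bases of the *Fdps* transcript have near-identical copies elsewhere, among them the processed pseudogene *Gm3571*, which is 99.1% identical over 445 bases and had 5, 7 and 6 counts in wild type and 8, 7 and 7 in cKO-labelled libraries. How the authors treated reads that map to several places is not given in the sources used here, so the level of *Fdps* is uncertain.

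**Figure D2:**
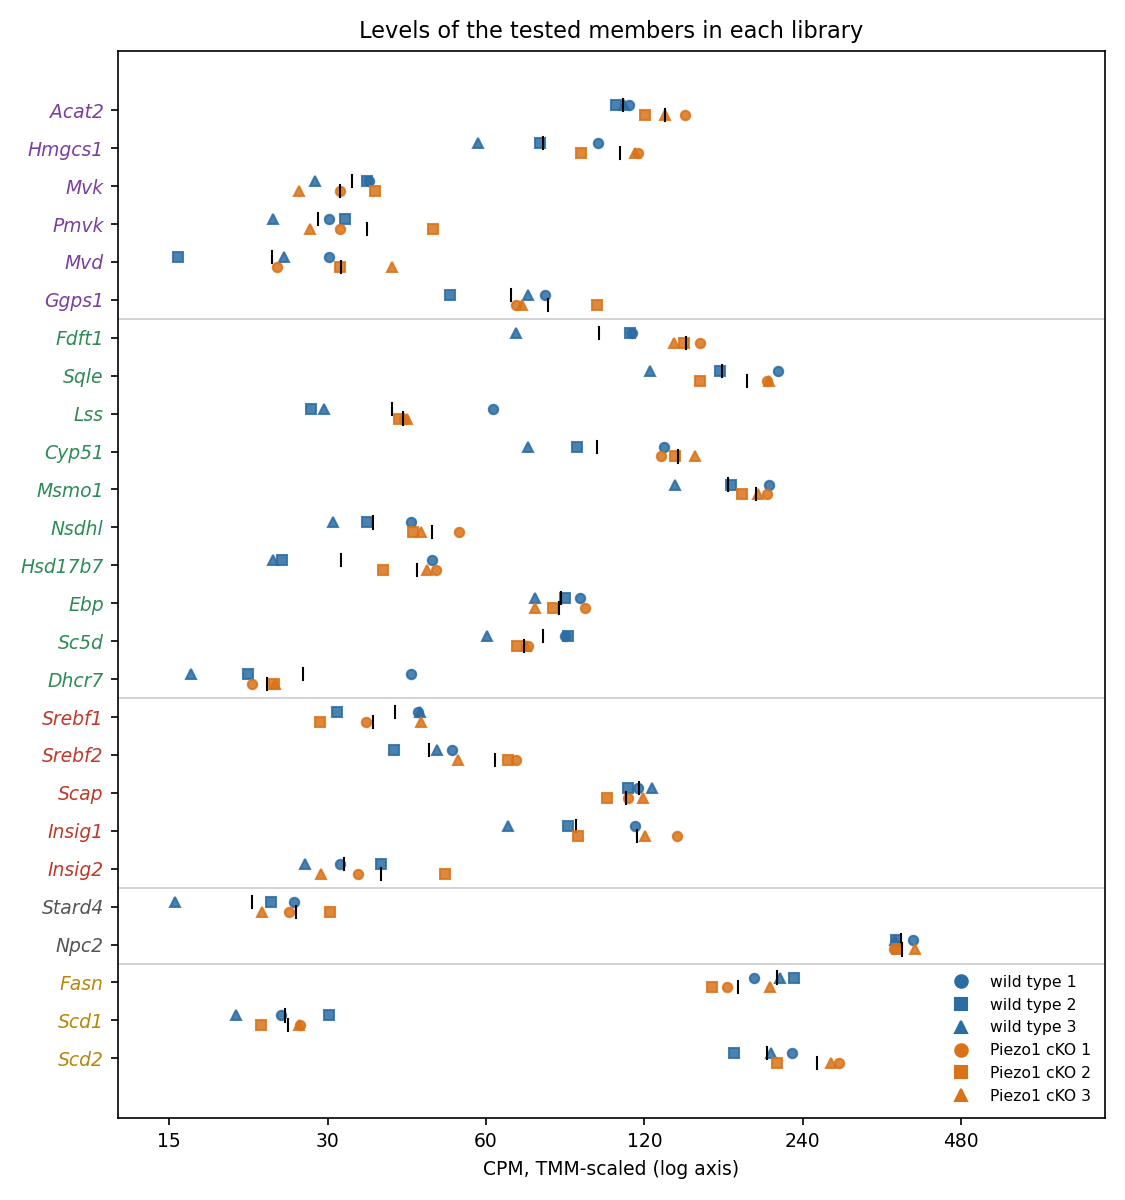
Levels of the 26 tested members in each library, in TMM-scaled CPM on a log axis, with wild type in blue, *Piezo1* cKO in orange, 1 symbol per replicate and a black line for the group mean. In *Fdft1* and *Acat2* all orange points lie to the right of all blue points, and in many synthesis genes the blue triangle, wild type library 3, is the lowest point.

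The squalene and sterol steps were represented by 11 members, of which 10 were tested, 7 had positive values and the median log2 fold change was 0.18. This median was 0.012 without wild type library 3 and 0.44 without wild type library 1. *Fdft1* (chr14:63145150-63179578, minus strand), squalene synthase, commits farnesyl diphosphate to sterol. It had 114, 113 and 68.5 CPM in wild type and 153, 143 and 136 CPM in cKO-labelled libraries. All cKO-labelled libraries were above all of wild type, and wild type library 3 was far below the other two. The level was 1.47-fold higher, with a log2 fold change of 0.56 (SE 0.17) and an edgeR adjusted p of 0.0904. Its last 500 bases overlap a transcript of *Ctsb*, a lysosomal protease gene on the opposite strand, and the strand setting of the counting is not given in the sources used here, so the reads of the pair may not have been separated. *Ctsb* had 663 ± 109 CPM (SD, n = 3) in wild type and 641 ± 24.7 CPM in cKO-labelled libraries.

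*Cyp51* (chr5:4081145-4104746, minus strand), the lanosterol 14-alpha-demethylase, had 131, 89.2 and 72.0 CPM in wild type and 129, 137 and 150 CPM in cKO-labelled libraries. Wild type library 1 lay within the range of the cKO-labelled libraries and the other two below it. The log2 fold change was 0.53 (SE 0.17, edgeR adjusted p = 0.132), a level 1.44-fold higher. A stretch of 166 bases at its 3′ end overlaps *Akap9*, the gene of a Golgi and centrosome scaffold on the opposite strand, which had 118, 92.6 and 90.9 CPM in wild type and 49.4, 76.6 and 88.8 CPM in cKO-labelled libraries. The values of *Cyp51* and *Akap9* thus pointed in opposite directions.

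*Nsdhl* (chrX:72918557-72958514, plus strand), a dehydrogenase of C4 demethylation, had 43.1, 35.7 and 30.7 CPM in wild type and 53.2, 43.6 and 45.1 CPM in cKO-labelled libraries. The groups did not overlap, but cKO library 2 and wild type library 1 were almost level, and the log2 fold change was 0.39 (SE 0.24, edgeR adjusted p = 0.557). *Hsd17b7*, the ketoreductase of the same demethylation, had 47.5, 24.5 and 23.6 CPM in wild type and 48.2, 38.3 and 46.4 CPM in cKO-labelled libraries, with a log2 fold change of 0.51 (SE 0.26, edgeR adjusted p = 0.429), which was 0.88 without wild type library 1 and 0.34 without wild type library 3. *Msmo1*, the methyl sterol oxidase that opens C4 demethylation, had 207, 175 and 137 CPM in wild type and 205, 184 and 197 CPM in cKO-labelled libraries. *Sqle*, the squalene epoxidase and a rate-limiting enzyme of the branch, had 216, 167 and 123 CPM in wild type and 205, 153 and 207 CPM in cKO-labelled libraries. In both genes wild type library 1 was the highest of all 6 libraries and wild type library 3 the lowest, and the log2 fold changes were 0.18 (SE 0.15) for *Msmo1* and 0.17 (SE 0.16) for *Sqle*. Without wild type library 3 they were 0.038 and -0.015, and without wild type library 1 they were 0.33 and 0.38.

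Of the remaining enzymes, *Lss*, the lanosterol synthase, had 61.8, 27.9 and 29.5 CPM in wild type and 41.8, 40.9 and 42.4 CPM in cKO-labelled libraries. Its wild type values spread far wider than those of the cKO-labelled libraries, at an SD of 19.1 against 0.735 CPM. The 3 tested members of the last steps of cholesterol synthesis had negative values, whose size or sign depended on which library was left out. *Ebp*, the sterol isomerase, stood at 83.3 ± 8.21 CPM (SD, n = 3) in wild type and 82.4 ± 9.30 CPM in cKO-labelled libraries, and the sign of its fold change depended on the scaling, at 0.067 with total counts alone. *Sc5d*, the C5 desaturase, had a log2 fold change of -0.12 (SE 0.19), which was -0.27 without wild type library 3 and -0.013 without wild type library 2. *Dhcr7*, the C7 reductase, had 43.1, 21.2 and 16.5 CPM in wild type and 21.5, 23.8 and 23.9 CPM in cKO-labelled libraries, and its log2 fold change of -0.18 (SE 0.31) became 0.29 without wild type library 1. *Tm7sf2*, a C14 reductase, was not tested, at 7, 6 and 3 counts in wild type and 8, 3 and 7 in cKO-labelled libraries.

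**Figure D3:**
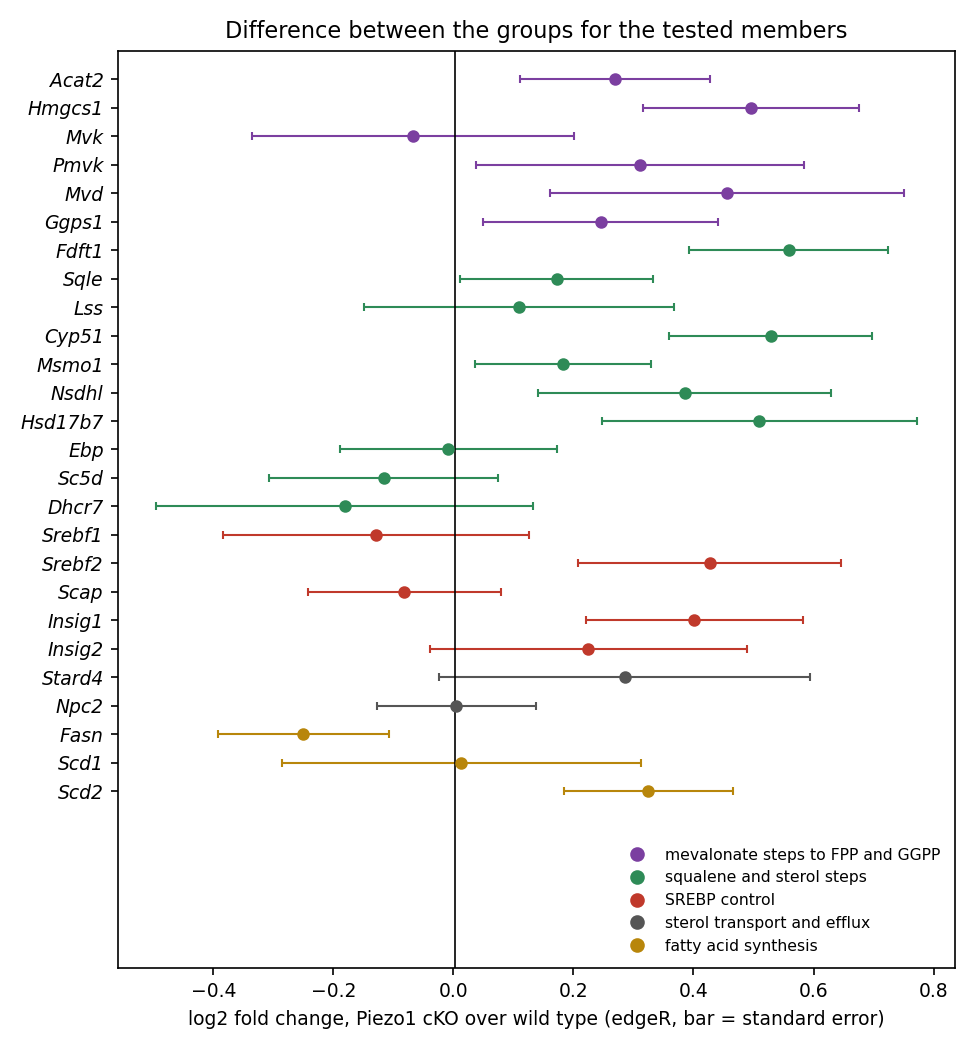
Log2 fold change of the 26 tested members (points, coloured by role) with its standard error derived from the edgeR test (bars). The black line marks the median of all genes tested. From *Fdft1* at 0.56 to *Fasn* at -0.25, 19 points lie above 0, and the last enzymes of the sterol branch, *Ebp*, *Sc5d* and *Dhcr7*, lie below it.

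The 5 genes of SREBP control were all tested, and 3 had positive values. *Srebf2* (chr15:82147181-82205379, plus strand) encodes the SREBP that favours sterol synthesis genes. It had 51.8, 40.2 and 48.4 CPM in wild type and 68.4, 66.0 and 53.0 CPM in cKO-labelled libraries, and all cKO-labelled libraries lay above all of wild type. The log2 fold change was 0.43 (SE 0.22, edgeR adjusted p = 0.427). *Insig1* (chr5:28071363-28078662, plus strand), which retains SCAP and is itself a target of SREBP, had 115, 85.9 and 66.1 CPM in wild type and 138, 89.8 and 121 CPM in cKO-labelled libraries. Wild type library 1 exceeded cKO library 2, and the log2 fold change was 0.40 (SE 0.18, edgeR adjusted p = 0.354). *Insig2*, its paralogue, had a log2 fold change of 0.23 (SE 0.26), which was -0.029 without cKO library 2. *Scap*, the sterol-sensing escort, stood at 117 ± 6.26 CPM (SD, n = 3) in wild type and 111 ± 8.80 CPM in cKO-labelled libraries, and *Srebf1*, whose products favour fatty acid genes, at 40.2 ± 7.79 and 36.5 ± 8.05 CPM. The 3′ end of *Srebf1* overlaps *Rai1* on the opposite strand for 109 bases.

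In sterol transport, *Npc2*, the soluble lysosomal carrier of cholesterol, stood at 369.6 ± 16.2 CPM (SD, n = 3) in wild type and 370.5 ± 18.9 CPM in cKO-labelled libraries, and the SE of its log2 fold change of 0.0048 was 0.13. Its sign was negative in DESeq2 and without the filter. *Stard4*, a cytosolic sterol carrier, had 25.9, 23.4 and 15.4 CPM in wild type and 25.4, 30.4 and 22.5 CPM in cKO-labelled libraries, with a log2 fold change of 0.29 (SE 0.31) that was 0.087 without wild type library 3 and 0.16 without cKO library 2. *Npc1*, the membrane partner of NPC2, had 5, 7 and 3 counts in wild type and 3, 5 and 2 in cKO-labelled libraries and was not tested. *Abca1*, the efflux pump induced by the oxysterol receptor LXR, had 3, 0 and 1 counts against 0, 0 and 1, and no fold is given because both groups were at or under the floor of 3 counts per library.

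The 3 genes of fatty acid synthesis were divided. *Scd2* (chr19:44293674-44306864, plus strand), a stearoyl-CoA desaturase, had 229, 177 and 209 CPM in wild type and 281, 214 and 272 CPM in cKO-labelled libraries. Wild type library 1 exceeded cKO library 2, and the log2 fold change was 0.32 (SE 0.14, edgeR adjusted p = 0.320). Its neighbour and paralogue *Scd1* (chr19:44394455-44407879, minus strand) stood at 24.9 ± 5.04 CPM (SD, n = 3) in wild type and 25.2 ± 2.37 CPM in cKO-labelled libraries, and its fold change of 0.013 was negative with cyclic loess scaling. *Fasn* (chr11:120805846-120824547, minus strand), the fatty acid synthase, had 194, 231 and 217 CPM in wild type and 172, 161 and 208 CPM in cKO-labelled libraries. Wild type library 1 lay below cKO library 3, so the groups overlapped, and the log2 fold change was -0.25 (SE 0.14, edgeR adjusted p = 0.489).

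Members whose cKO-labelled libraries all lay above wild type numbered 4 of 26, *Acat2*, *Fdft1*, *Nsdhl* and *Srebf2*, where 8.2% of all genes tested did so. In the opposite direction there were 0 of 26, where 8.31% of all genes did so. Scaled by total counts alone, which moved the median log2 fold change of all genes to 0.078, 7 members and 11.6% of all genes lay higher in every cKO-labelled library, and 0 members and 5.09% of all genes lower. With DESeq2 size factors the higher members numbered 3, against 7.5% of all genes, and the lower ones 0, against 8.97%. A log2 fold change of 0.4 or more was held by 7 members, *Insig1* narrowly at 0.402, and by 10.6% of all genes. Without wild type library 3 only *Mvd* (0.51) and *Srebf2* (0.46) held it. Without wild type library 1 all 7 held it, as did *Stard4* (0.42), *Scd2* (0.41), *Nsdhl* (0.51) and *Lss* (0.54).

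Summed over the 19 members of the mevalonate, squalene and sterol steps, the level was 1445, 1151 and 959 CPM in wild type libraries 1 to 3 and 1460, 1346 and 1416 CPM in cKO-labelled libraries. Wild type library 1 was as high as the cKO-labelled libraries, library 2 lower and library 3 lowest. The means were 1185 ± 245 CPM and 1407 ± 57.7 CPM (SD, n = 3), a ratio of 1.19. The SD of the sum was thus larger in wild type, but this did not hold for every gene. Among the 10 tested members of the squalene and sterol steps the SD was larger in wild type for 9, all but *Ebp*, whereas among the 6 tested members of the mevalonate steps it was larger in cKO-labelled libraries for 5, all but *Hmgcs1*. Among the 16 tested members of these steps, wild type library 3 was the lowest of the 6 libraries for 10, wild type library 2 for 4 and cKO library 3 for 2. The highest value was in cKO library 1 for 6 members and in wild type library 1 for 4.

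**Figure D4:**
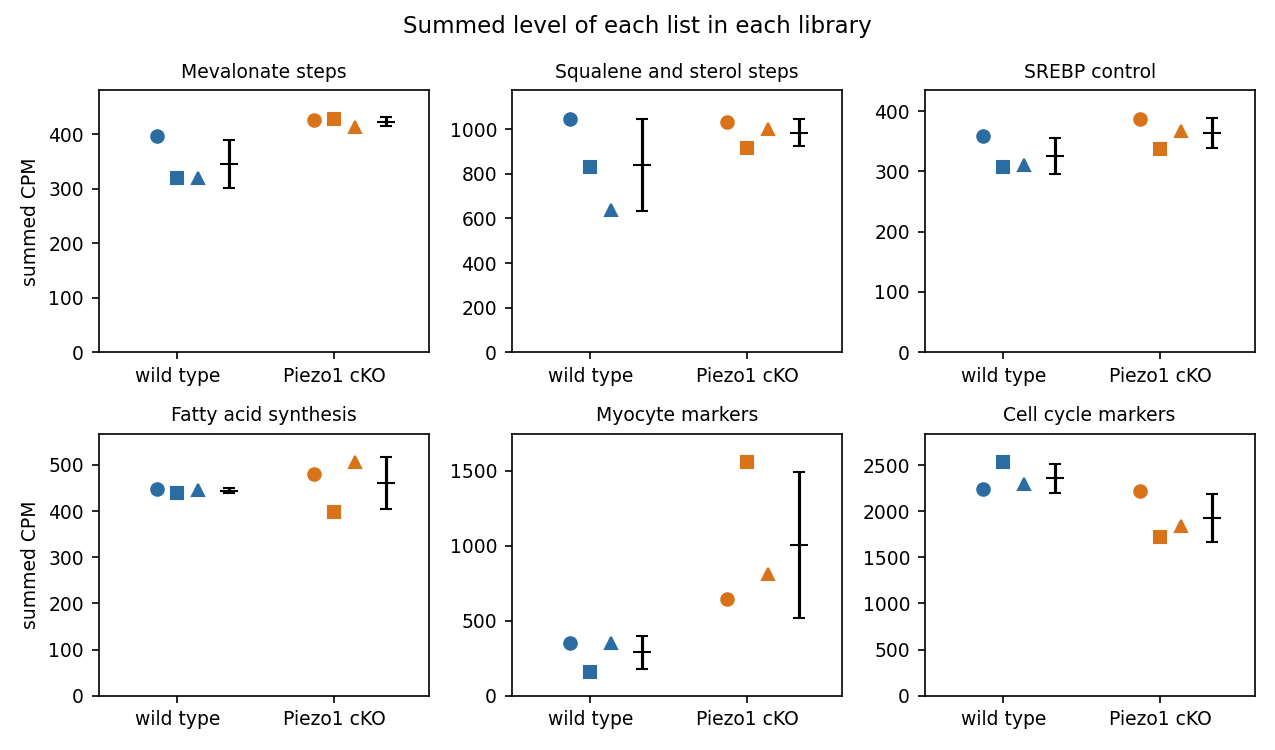
Summed CPM of 4 groups of members and 2 marker lists in each library (circle, square and triangle for replicates 1, 2 and 3), with the mean and SD of each group in black. The mevalonate sum lies at 320 to 397 CPM in wild type and at 413 to 429 CPM in *Piezo1* cKO, and the squalene and sterol sum of wild type runs from 639 to 1048 CPM.

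The fold changes of the members with the lowest p depended on which libraries were in the comparison. Without wild type library 3, the log2 fold changes were 0.35 for *Fdft1*, 0.35 for *Cyp51*, 0.32 for *Hmgcs1* and 0.22 for *Insig1*, *Scd2* was the only member with an unadjusted p under 0.05, and the median of the 26 members was 0.099. Without wild type library 1, *Cyp51* (0.78, edgeR adjusted p = 0.0108) and *Fdft1* (0.67, edgeR adjusted p = 0.0450) were called, among 1.17% of all genes, and the median was 0.35. *Fdft1* was called without wild type library 2 as well (0.69, edgeR adjusted p = 0.0206), among 0.849% of all genes. Without wild type library 3, when 1.48% of all genes were called, 0 members were. Leaving out cKO library 1, 2 or 3 called 0 members and 1.98%, 0.0681% and 0.325% of all genes. The median of the 26 members was then 0.22, 0.14 and 0.26, and the log2 fold change of *Insig1* was 0.25, 0.55 and 0.37. Among genes with at least 10 counts in every library, of which 1.23% were called, *Fdft1* was the only member called. All 6 values of *Fdft1*, *Cyp51*, *Hmgcs1*, *Insig1* and *Scd2* with 1 library left out were positive.

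**Figure D5:**
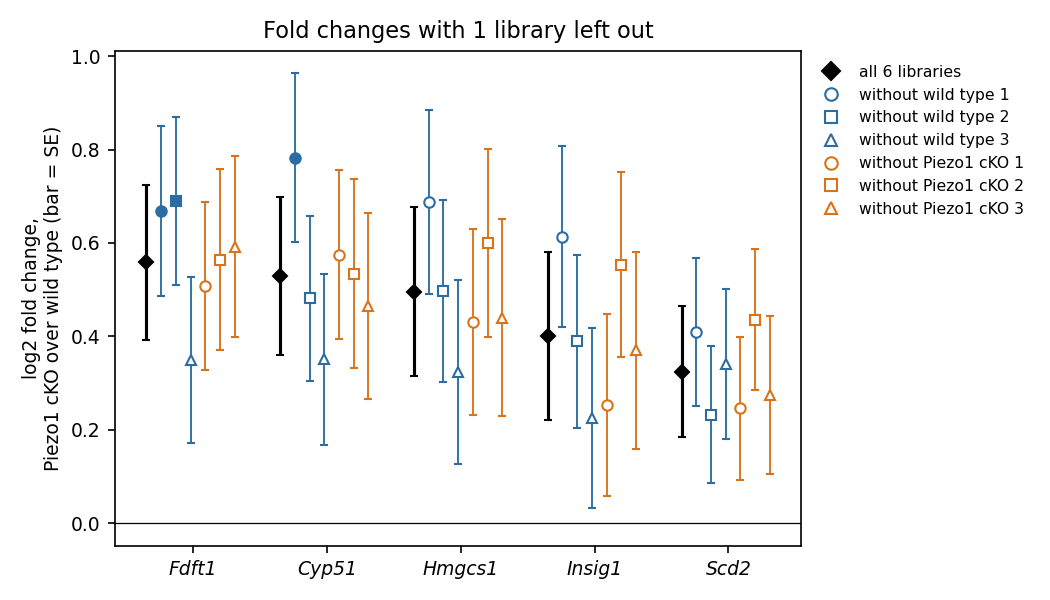
Log2 fold change (y axis) with standard error of 5 members with all 6 libraries (black diamonds) and with each library left out (blue for wild type, orange for *Piezo1* cKO), where filled coloured symbols mark an adjusted p under 0.05. The filled symbols are *Fdft1* without wild type 1 or 2 and *Cyp51* without wild type 1, and the values of *Fdft1*, *Cyp51*, *Hmgcs1* and *Insig1* without wild type 3 are the lowest of each gene.

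The 5 lists of neighbouring pathways held no called gene in edgeR, DESeq2 or limma-voom. The list of sterol synthesis partners holds electron carriers and chaperones that serve the sterol enzymes, and also some further enzymes. Of its 14 genes 11 were tested, 6 with positive and 5 with negative values (median log2 fold change 0.016). The lowest p belonged to *Cyb5a*, a cytochrome b5 that donates electrons to desaturases (-0.31, edgeR adjusted p = 0.416), and *Por*, the reductase that supplies CYP51, had -0.13. In this list 0 genes lay higher and 3 lower in every cKO-labelled library than in wild type, among them *Cyb5a* and *Lbr*, a C14 reductase (-0.19), against 8.2% and 8.31% of all genes. Of the genes for SREBP processing and for sterol-dependent degradation, 18 of 20 were tested, 8 with positive and 10 with negative values (median -0.0082). In that list *Dipk2a* had 116, 122 and 141 CPM in wild type and 215, 157 and 162 CPM in cKO-labelled libraries, with no overlap and a log2 fold change of 0.50 (SE 0.15, edgeR adjusted p = 0.110). The NF-Y subunit gene *Nfyb* had 0.33 and the degradation factor *Faf2* -0.26. *Dipk2a* was the 1 gene of this list higher in every cKO-labelled library, and 3 were lower in every one, among them *Faf2* and *Erlin1* (-0.35). The list was written by symbol, and a role of *Dipk2a* in these processes was not tested.

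Of the genes for sterol uptake, esterification, transport and LXR signalling, 16 of 25 were tested, 11 with positive and 5 with negative values (median 0.10), and 0 had an unadjusted p under 0.05. The 3 lowest p were those of the lipoprotein receptor *Lrp8* (-0.37), the late endosomal sterol carrier *Stard3* (0.34) and the cholesteryl ester hydrolase *Nceh1* (0.24). *Gramd1c* was at 0 in all libraries. In the list for fatty acid synthesis and desaturation, 24 of 26 were tested, 14 with positive and 10 with negative values (median 0.039). *Acsl3*, an acyl-CoA synthetase of lipid droplets, had 92.0, 73.6 and 75.6 CPM in wild type and 115, 102 and 109 CPM in cKO-labelled libraries, with no overlap (0.44, edgeR adjusted p = 0.241). The elongation enzymes *Hacd2* (-0.41) and *Hacd1* (0.28) had values of opposite sign. In the list for isoprenoid use, which holds the prenyltransferases, dolichol and ubiquinone enzymes, all 24 genes were tested, 12 with positive and 12 with negative values (median 0.0049), and 0 had an unadjusted p under 0.05. Its 3 lowest p were those of *Fnta*, the alpha subunit shared by the farnesyl and geranylgeranyl transferases (-0.26), and of the dolichol genes *Srd5a3* (0.34) and *Dolk* (0.24). *Srd5a3* and *Chml* (0.39), a Rab escort protein gene, were higher in every cKO-labelled library and *Fnta* lower in every one. Of all genes, 8.2% were higher in every cKO-labelled library and 8.31% lower. *Lbr*, *Erlin1* and *Chml* are named for the lack of overlap, after their values were seen. For comparison, the 16 tested members of the mevalonate, squalene and sterol steps had 12 positive and 4 negative values and a median of 0.26. *Lbr*, a C14 reductase with a negative value, is not among these 16. The difference between the lists was not tested.

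Markers of cell identity and state were read in the same libraries. The 8 markers of muscle stem cells and myoblasts were all tested, and 0 were called. Their log2 fold changes ran from -0.64 to 0.53, 4 positive and 4 negative. An unadjusted p under 0.05 was held by 3, 1 higher and 2 lower in cKO-labelled libraries (smallest edgeR adjusted p = 0.0609). Of all genes, 6.14% had such a p as higher and 5.78% as lower. Their summed level was 2802 ± 132 CPM (SD, n = 3) in wild type and 2631 ± 306 CPM in cKO-labelled libraries, and *Myod1*, the myoblast transcription factor, was the highest of them, at 1569, 1366 and 1441 CPM against 1489, 1087 and 1353 CPM. Of 9 myocyte markers 6 were tested, all 6 higher in every library labelled cKO, where 8.2% of all genes were. Their median log2 fold change was 1.99. Summed, they stood at 352, 161 and 353 CPM in wild type and at 644, 1559 and 814 CPM in cKO-labelled libraries. The highest of them was *Acta1*, skeletal alpha-actin, and *Actn3*, a sarcomeric actinin, was called (1.20, edgeR adjusted p = 1.02e-05). The 10 cell cycle markers had negative values (median -0.34), 6 with an unadjusted p under 0.05, against 5.78% of all genes, and 0 called. They summed to 2242, 2533 and 2294 CPM in wild type and 2221, 1717 and 1841 CPM in cKO-labelled libraries, and the highest was *Ccnb1*, the mitotic cyclin B1. The part of these differences in the sterol gene values was not tested. In bulk libraries, fewer cells of a type and less RNA per cell cannot be told apart.

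Of 7 markers of fibro-adipogenic cells and fibroblasts, 2 were tested. *Dcn*, decorin, was called lower in cKO-labelled libraries (-2.17, edgeR adjusted p = 0.000387), at 25.9, 25.7 and 43.7 CPM in wild type against 10.1, 6.60 and 3.98 CPM. *Cd34* was the highest of the list, whose sum was 168 ± 54.0 CPM (SD, n = 3) in wild type and 61.6 ± 11.1 CPM in cKO-labelled libraries, and *Pi16* was at 0. Of the adipocyte markers *Lpl* alone was tested (-0.80, edgeR adjusted p = 0.131), *Fabp4* had at most 6 counts in a library, and the list summed to 36.0, 55.8 and 67.3 CPM in wild type and 35.5, 34.3 and 21.2 CPM in cKO-labelled libraries. Fibro-adipogenic cells are known to carry Sca1, and the sort kept Sca1- cells. Which cells the *Cd34* counts came from was not tested, nor was the part of fibro-adipogenic cells in the sterol gene values. Of the Schwann cell markers *Pmp22* was the highest, with sums of 28.5 ± 11.7 and 18.7 ± 2.69 CPM (SD, n = 3). The endothelial markers summed to 7.19 CPM or less in every library, with *Kdr* the highest and *Tie1* at 0, and *Cd68* was the highest leukocyte marker, in a list that summed to between 8.87 and 15.6 CPM.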

How the data were processed

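The deposited values are counts of unique molecular identifiers (UMIs) per gene, not normalised, in 1 column per library. The authors made cDNA from 500 pg of RNA per library with barcoded primers and 12 PCR cycles, mapped the reads to GRCm38 with STAR 2.7.9a, assigned them to genes with featureCounts 2.0.1 and made the counts with UMI-tools 1.1.1. Their settings for strand and for reads with several positions are not given in the sources used here.

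Counts were analysed in R 4.3.3. The test was edgeR 4.0.16 (filterByExpr by group, TMM, robust quasi-likelihood fit, Benjamini-Hochberg adjustment over the 8551 genes kept), on all 6 libraries without covariates. The SE given for a log2 fold change was derived, as its absolute value divided by the square root of the F statistic of this test. Library totals of 726378 to 931168 counts make 3 counts equal to 3.35 to 4.31 CPM, and SDs and floors cover these libraries and counting error only. *Piezo1* did not pass the filter, so its fold change was taken from the fit without the filter, which departs from the design. The alternatives tried were limma-voom (limma 3.58.1), DESeq2 1.42.0 at its defaults, DESeq2 size factors, total counts, cyclic loess, no filter, at least 10 counts in every library, the replicate block, an adjusted p of 0.1, thinning of every library to the smallest total, and each library left out in turn.

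The members and lists were chosen with earlier results of these data known. Every member, *Piezo1*, the called genes and the 3 genes with the lowest p of each further list, and the highest, absent and called genes of each marker list are named, except for some genes of the pathway and of the lists that are not reported here. Lists are described by counts and medians, without a set test. Gene coordinates are from GENCODE M21 (GRCm38), promoters from RefSeq (GRCm38.p6), which gave a window for 24 of 31 members. The calculation was tested on simulated counts. The list genes *Ckm*, *Dpt*, *Cdh5*, *Adipoq*, *Plin1*, *Cidec*, *Lep*, *Cfd*, *Ptprc*, *Adgre1*, *Cd3e*, *Tyrobp*, *Idi2*, *Faxdc2* and *Cyp7b1* were not analysed here.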

Additional observations from a re-analysis of the deposited data

How the results depend on the processing

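At these depths the SE of a tested member was 0.13 to 0.31 on the log2 scale, and differences of about 3 SE, such as 0.56 (SE 0.17) for *Fdft1* and 0.53 (SE 0.17) for *Cyp51*, were not called. The 26 tested members had 390 values under the alternatives, of which 348 kept their direction and their side of the threshold, 12 from DESeq2 kept their direction but had no adjusted p, 26 reversed and 4 became called, and 17 members had no reversal. The cause of a change was not tested. The 67 called genes numbered 27 with DESeq2, 32 with cyclic loess, 129 without the filter, 124 at an adjusted p of 0.1 and 6 to 174 with 1 library left out. With total counts 49 of 67 calls were higher and 18 lower, against 40 and 27. With DESeq2 12 calls were higher and 15 lower, and with cyclic loess 17 and 15. One member, *Fdft1*, was called with at least 10 counts in every library, among 1.23% of all genes. At an adjusted p of 0.1 it was also *Fdft1* alone, among 1.45%. The number of members called was 0 to 2 with 1 library left out. Members higher in every library labelled cKO numbered 4, against 7 with total counts and 3 with DESeq2 size factors, which were chosen after seeing the data (8.2%, 11.6% and 7.5% of all genes). With 1 library left out, the median log2 fold change was 0.19 to 0.36 for the mevalonate steps (0.29 with all 6), 0.012 to 0.44 for the squalene and sterol steps (0.18), 0.0087 to 0.37 for SREBP control (0.225), 0.037 to 0.23 for sterol transport (0.145) and -0.13 to 0.19 for fatty acid synthesis (0.013). The lists of neighbouring pathways had 0 calls under every alternative run.

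With total counts *Mvk* was 0.0095 and *Ebp* 0.067. *Ebp* was 0.0055 with at least 10 counts in every library and 0.042 with thinned libraries. *Npc2* was -0.0089 with DESeq2, -0.0016 without the filter and -0.0081 with thinned libraries, and *Scd1* was -0.035 with cyclic loess and -0.013 with thinned libraries. With 1 library left out the ranges were -0.19 to 0.041 for *Mvk*, -0.015 to 0.38 for *Sqle*, -0.091 to 0.54 for *Lss*, -0.10 to 0.057 for *Ebp*, -0.44 to 0.29 for *Dhcr7*, -0.31 to 0.0087 for *Srebf1*, -0.029 to 0.38 for *Insig2*, -0.042 to 0.044 for *Npc2* and -0.13 to 0.19 for *Scd1*. Without a change of sign they were 0.34 to 0.88 for *Hsd17b7*, -0.27 to -0.013 for *Sc5d*, 0.22 to 0.61 for *Insig1* and -0.14 to -0.025 for *Scap*.

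The replicate numbers of the labels did not pair the libraries: same-numbered libraries correlated at -0.20 to 0.012, and 0 of 6 correlated best with their own number. With the replicate block 46 genes and 0 members were called. *Piezo1* had a log2 fold change of 0.41 (SE 0.46, edgeR adjusted p = 0.736) without the filter. It was 0.38 in DESeq2. With 1 library left out it was 0.14 (wild type 2), 0.26 (wild type 3), 0.60 (cKO 1) and 0.43 (cKO 3). The other alternatives gave no value for *Piezo1* because it did not pass the filter.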
